A study of Mus musculus with 8 samples.

Results

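The germline imprinting control regions analysed here were 19 windows of mouse build mm10, placed at regions that receive DNA methylation in the egg or the sperm. The windows were set by position and not by a measured value, though with earlier results of these data known. They held 1188 of the 2361680 cytosines listed. By background knowledge 17 of the windows, Airn and Peg13 among them, are methylated on the maternal allele and 2, upstream of H19 and of Rasgrf1, on the paternal allele. The cells were NIH3T3, a fibroblast line established from mouse embryos and immortal in culture, grown as stable clones. Clones 10 and 12 carried FLAG-tagged 14-3-3ε, a protein that binds phosphorylated partners, in the plasmid p3xFLAG-CMV-10, in which the CMV promoter drives the insert. Clones 2 and 3 carried the control vector. Per the labels, the 14-3-3ε lines were selected in 800 µg/mL of the drug G418 and each grew out of 1 picked colony, and all clones were kept in medium with 10% serum. The selection of the control clones is not described separately. Each of the 4 clones was measured by reduced representation bisulfite sequencing (RRBS) and by RNA-seq, which made 8 samples in 4 groups of 2.

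For each assay the values come from a single comparison that the authors made between the groups. Clones are not listed one by one in it, and the spread between them is therefore not seen. A difference is the methylation of 14-3-3ε clones minus that of control clones in percentage points, and a fold change is 14-3-3ε over control. Clones are named by their labels. Ywhae, the mouse gene of 14-3-3ε, had a log2 fold change of -0.03 (SE 0.18, adjusted p 0.942) at a mean normalized count of 15674 in the authors' deposited table, so the RNA values show no higher level of it in the clones labelled 14-3-3ε and do not check the direction. The labels give a western blot for the FLAG tag as the check of the picked colonies. Reading a positive value as higher in 14-3-3ε clones follows the usual convention of the tools named by the submitters. Neither table states it, and each direction below rests on it. A cytosine is called where the deposited q is under 0.05. Levels per group were not analysed here, so a difference near 0 does not tell whether a region was methylated on 1 allele, on both or on none.

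Genomic imprinting is the expression of a gene from the copy of a single parent. At a control region the methylation set in the germ cell survives the genome-wide demethylation of the early embryo and is then copied at each cell division, so that in fibroblasts the methylated and the unmethylated allele normally lie side by side. The zinc finger proteins ZFP57 and ZFP445 bind the methylated allele and bring TRIM28, and the copying itself needs UHRF1 and DNMT1. Many of the unmethylated alleles act as promoters of long noncoding RNAs or of retrogenes that lie inside other genes.

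The promoters of Mcts2 and Snrpn are shown because their listed cytosines lay along stretches of opposite sign. Both sequences are windows of 300 bases from RefSeq (GRCm38.p6, the assembly of mm10), from 250 bases before to 50 after the start, and capitals mark the CpGs with at least 1 listed cytosine. The Mcts2 window is chr2:152686898-152687197 on the plus strand and the Snrpn window is chr7:60005150-60005449 on the minus strand.
Mcts2 promoter: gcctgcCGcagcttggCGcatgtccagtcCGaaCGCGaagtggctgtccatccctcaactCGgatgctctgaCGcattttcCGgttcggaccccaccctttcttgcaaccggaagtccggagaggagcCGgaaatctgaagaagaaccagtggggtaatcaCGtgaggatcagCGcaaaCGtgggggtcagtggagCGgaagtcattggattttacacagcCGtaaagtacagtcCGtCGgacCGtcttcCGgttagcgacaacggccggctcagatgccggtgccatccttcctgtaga
Snrpn promoter: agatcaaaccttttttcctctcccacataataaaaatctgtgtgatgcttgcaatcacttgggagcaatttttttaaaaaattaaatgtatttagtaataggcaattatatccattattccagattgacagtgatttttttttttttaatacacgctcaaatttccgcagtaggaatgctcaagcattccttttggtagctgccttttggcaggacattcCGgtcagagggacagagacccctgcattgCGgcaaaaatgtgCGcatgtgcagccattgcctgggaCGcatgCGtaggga
The Mcts2 window held 37 listed cytosines with a mean difference of 7.03 percentage points and 2 calls, both higher. The Snrpn window held 10 with a mean of -9.32 and 1 call, which was lower. Of the 37 in the Mcts2 window, 36 lay at a CpG of the build.

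ZFP57 is known to bind the hexamer TGCCGC when its CpG is methylated, and the letters were searched on both strands, as TGCCGC and as GCGGCA. The 19 promoter windows of RefSeq that lie in or reach into the control regions formed 14 groups of overlapping windows, and 6 of the 14 held the hexamer, at Mcts2, Nnat, Mest, Nap1l5, Snrpn and Plagl1. Of the 14 groups 7 held a listed cytosine, and those of Airn, Mest, Nap1l5, Peg3 with Usp29, Kcnq1ot1, Grb10 and Gnas exon 1A held none, so values of these regions come from outside those promoter windows. Of all 32851 single promoter windows of RefSeq 11.6% held the hexamer, and 20.1% of the 17116 with at least 7 CpGs. The minimum of 7 is the fewest CpGs in a region window that held the hexamer. The 14 groups were not held to it, and a group can be longer than a single window. These shares are therefore not on the same footing as 6 of 14. The sites whose CpG was listed are shown with the hexamer in capitals, since they give the difference at the hexamer itself. They lie at chr2:152686898-152686916 (Mcts2), chr2:157560095-157560120 (Nnat), chr7:60005186-60005211 (Snrpn, minus strand) and chr10:13090732-13090757 (Plagl1), the others on the plus strand.
Mcts2 hexamer site: gccTGCCGCagcttggcgc
Nnat hexamer site: caccggggctGCGGCAttgcgcccag
Snrpn hexamer site: cccctgcattGCGGCAaaaatgtgcg
Plagl1 hexamer site: ggcgtgttgcGCGGCAaagcccacgg
None of these 4 hexamer CpGs was called on either strand. In the authors' deposited table the plus and minus strand differences were -0.61 and 1.06 at Mcts2, -1.23 and 0.0351 at Nnat, -2.36 and -3.70 at Plagl1 and -13.6 and -6.57 at Snrpn. The Snrpn site, with q of 0.405 and 0.543, was farthest from 0. Hexamers at Mest and Nap1l5 had no listed cytosine.

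Most of the control regions had few called cytosines. Calls of a single sign reached 10% of the listed cytosines, with at least 3 calls, in 2 of the 19 regions, higher at Peg13 and lower at Airn in 14-3-3ε clones. Of 1188 cytosines in the regions 40 were called (3.37%), against 4.71% of the other cytosines of the same 9 chromosomes and 4.74% of the whole table. Of the 40 calls 25 were higher and 15 lower. Calls higher made up 2.10% of the region cytosines, against 1.91% of the others, and calls lower 1.26%, against 2.8%. Lower calls thus made up 37.5% of the calls in the regions and 59.4% of those among the others. The mean difference was 0.658 percentage points over the regions and -0.454 over the others. These are descriptions with no test, since neighbouring cytosines share reads.

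**Figure D1:**
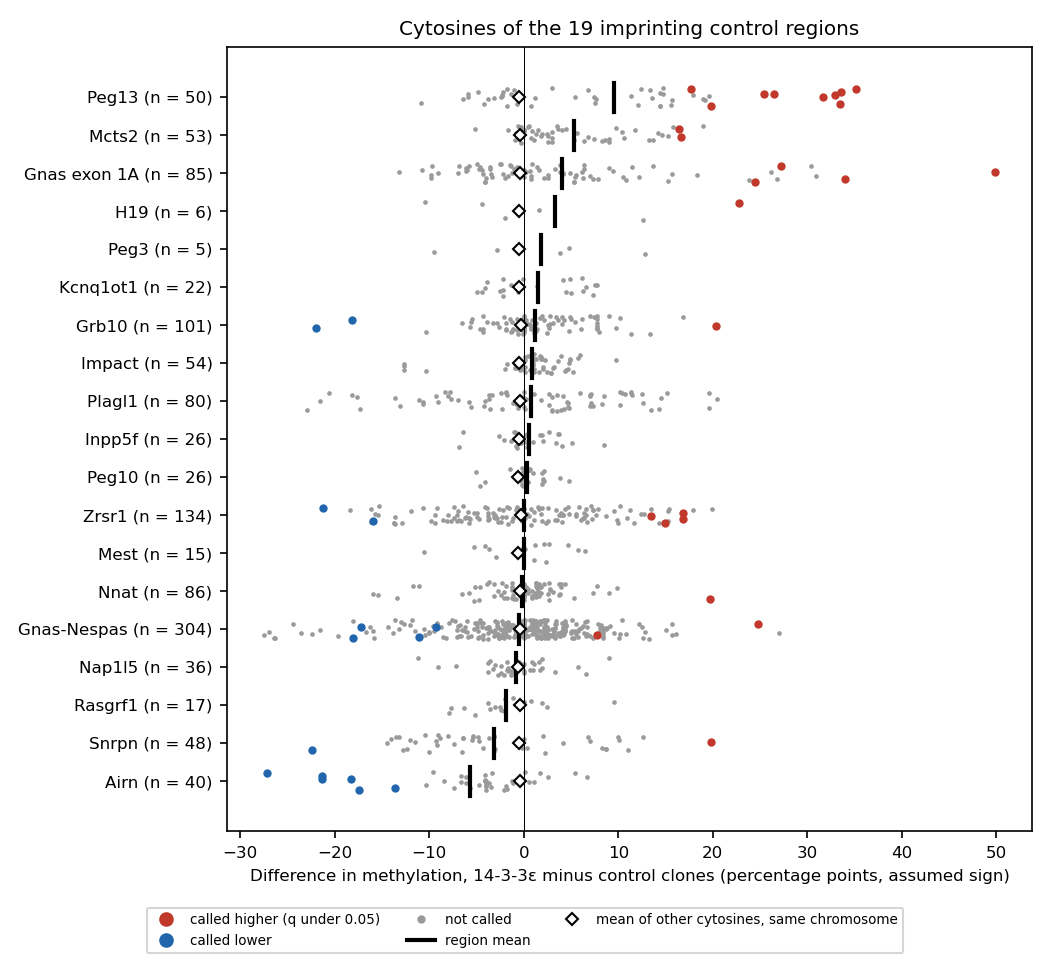
Difference in methylation (x axis, percentage points) of every listed cytosine in each control region (y axis, ordered by the region mean). Red and blue points are called higher and lower, grey points are not called, bars are region means and diamonds are means over other cytosines of the same chromosome. The Peg13 mean stands at 9.54 and the Airn mean at -5.70.

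Calls were unevenly spread over the regions. A total of 10 regions had at least 1 call, of which 5 had higher calls only, 1 had lower calls only and 4 had both. The other 9 regions, with 281 listed cytosines, had none. Region means were above 0 in 12 and below 0 in 7, and 14 of the 19 stood above the mean of their chromosome. In 3 regions, those of Peg13, Airn and H19, the share called exceeded that of the rest of their chromosome. The H19 share rests on 1 call among 6 listed cytosines. Peg13 and Airn held 9 and 6 of the 40 calls, and without these windows 2.28% of cytosines were called, 16 higher and 9 lower.

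Peg13 is a noncoding RNA transcribed from the paternal allele within an intron of Trappc9, and the region at its promoter, chr15:72808001-72812000, showed the highest region mean. Of its 50 listed cytosines 9 were called and all 9 were higher (18.0%), against 4.84% of the other cytosines of the chromosome, of which 1.95% were called higher. The mean difference was 9.54 percentage points, against -0.505 on the rest of the chromosome, and 33 of the 50 differences were above 0 and 17 below. In the authors' deposited table the 9 called differences were 25.5 at position 72809821, 32.9 at 72810037, 19.8 at 72810038, 35.1 at 72810045, 31.6 at 72810053, 33.4 at 72810065, 26.4 at 72810083, 17.7 at 72810084 and 33.6 at 72810086. Their q-values ran from 0.000426 to 0.0224 in that authors' deposited table.

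The higher calls of Peg13 clustered in a stretch of 51 bp, from 72810037 to 72810087, in which all 12 listed cytosines had differences above 0, with a mean of 23.8, and 8 were called. Within it the 6 plus strand cytosines ranged from 26.4 to 35.1 and all were called, and the 6 minus strand cytosines ranged from 12.1 to 19.8 with 2 called. Over the whole region the plus strand averaged 13.1 over 27 cytosines and the minus strand 5.31 over 23. A further cluster of 12 cytosines from 72810540 to 72810721 averaged 9.87 with 10 of the 12 above 0, and none of these was called. The 22 listed cytosines before position 72810001 had a median of -1.18 and 1 call. Just past the stretch, at 72810096 and 72810097, the authors' deposited table gave -1.81 and -2.39. The higher values did not run into the flanks: the 70 listed cytosines within 50 kb on either side averaged -1.10, and both of their calls were lower. The nearest listed cytosine before the window lay 2804 bp away and differed by -21.6 with a q of 0.000274 in the authors' deposited table. The cytosine next to it, 2805 bp away, differed by -1.99 with a q of 0.783 in the authors' deposited table. The nearest after the window, 2330 bp away, differed by -1.36 with a q of 0.836 in the authors' deposited table.

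Airn is the noncoding RNA of the paternal allele that runs antisense to Igf2r, the receptor that clears IGF2, and silences it on that allele. Its region, chr17:12741001-12744000, had the lowest mean of the 19. Of 40 listed cytosines 6 were called and all 6 were lower (15.0%), against 4.78% of the other cytosines of the chromosome, of which 2.83% were called lower. The mean difference was -5.70, against -0.457 on the rest of the chromosome, and 33 of the 40 were below 0. In the authors' deposited table the called differences were -13.6 at 12741740, -18.3 at 12742357, -21.4 at 12742358, -21.3 at 12742359, -27.2 at 12742360 and -17.5 at 12742367, with q-values from 3.18e-05 to 0.0245.

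The called cytosines of Airn belonged to 2 clusters of 20. The first, from 12741590 to 12741750, averaged -4.92 with 19 of 20 below 0 and 1 called, so that small differences of a single sign ran along it. The second, from 12742236 to 12742377, averaged -6.48 with 14 of 20 below 0, and its 5 calls lay together at the positions from 12742357 to 12742367. Both strands of 2 neighbouring CpGs were called there. The plus and minus strands averaged -6.02 and -5.38 over the region. In the flanks of 50 kb the mean of 172 cytosines was 3.63 with 1 call, which was higher.

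**Figure D2:**
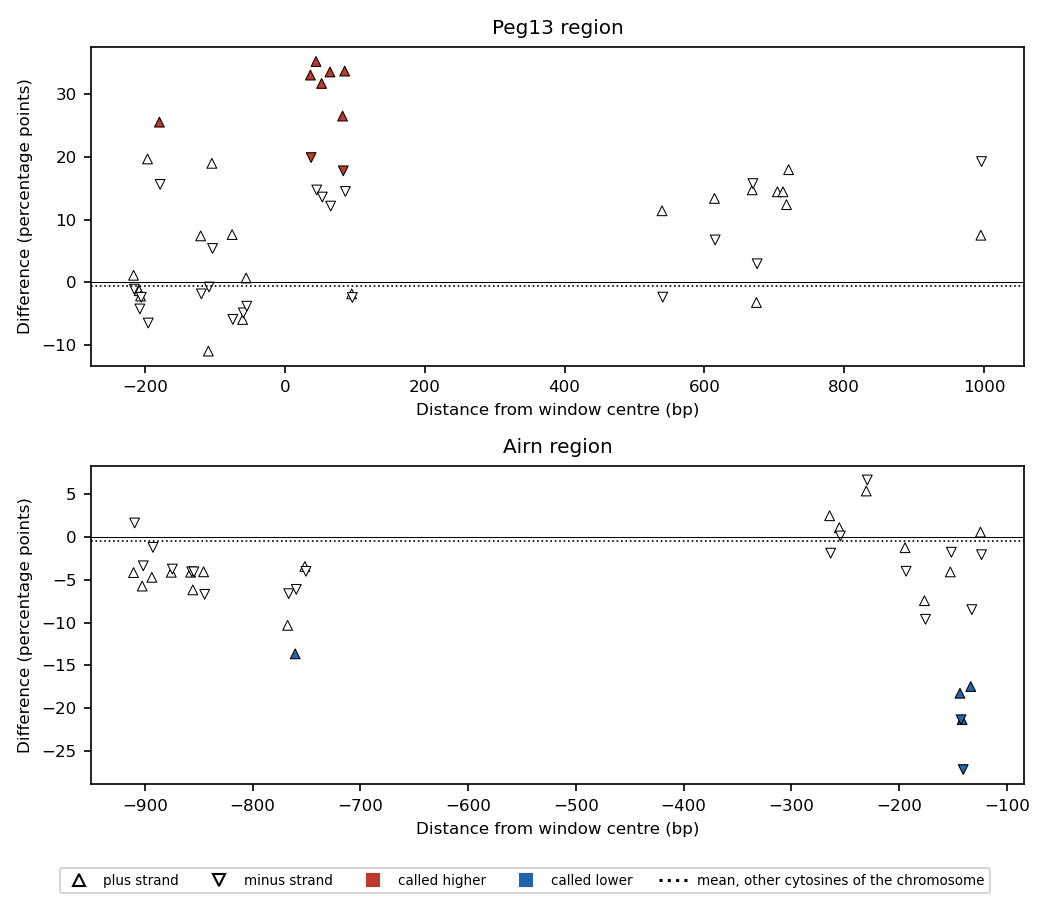
Difference in methylation (y axis, percentage points) against distance from the window centre (x axis, bp) for the listed cytosines of the Peg13 and Airn regions. Upward and downward triangles are the plus and minus strand, filled ones are called, and dotted lines are means over other cytosines of the chromosome. The 8 neighbouring higher calls of Peg13 lie within 51 bp, and 5 of the 6 lower calls of Airn lie side by side.

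Kcnq1ot1, a further noncoding RNA that silences its neighbours on the paternal allele, had no call in its region, chr7:143294001-143298000. Its 22 listed cytosines averaged 1.49, against -0.507 on the rest of the chromosome, where 4.6% were called, and 11 lay above 0 and 11 below. The minus strand averaged 4.26 and the plus strand -1.27. The listed cytosines all lay from 143295469 to 143295618, outside the RefSeq promoter window of Kcnq1ot1.

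The Gnas locus, which makes the stimulatory G protein alpha subunit and several alternative transcripts, contributed 2 windows. The first, chr2:174283001-174301000, spans the promoters of Nesp, Nespas and Gnasxl and was the longest on this chromosome, with 304 listed cytosines. Of these 6 were called, 2 higher and 4 lower (1.97%, against 4.96% of the other cytosines of the chromosome), and the mean was -0.559, against -0.423. Neighbouring lower calls, 3 in all, stood in the authors' deposited table at 174298054, 174298056 and 174298057 with differences of -9.32, -17.2 and -18.0. The largest higher call of that window was 24.7 at 174299343, with a q of 0.0496 in the authors' deposited table. By background knowledge Nesp is methylated on the paternal allele after fertilisation, so the window does not hold maternal methylation alone.

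The second window, chr2:174326001-174329000, lies at exon 1A, whose maternal methylation governs the tissue-specific silencing of Gnas. It had 85 listed cytosines and a mean of 3.99. There were 4 higher calls and no lower one (4.71%, against 4.96% of the rest of the chromosome). The 4 calls were 24.4 at 174327919, 27.2 at 174328583, 49.9 at 174328916 and 34.0 at 174328930 in the authors' deposited table. The value of 49.9, with a q of 0.00101 in the authors' deposited table, was the largest difference in any of the 19 regions. Higher values lay beside values near 0: the median was 0.771 and 36 of the 85 were below 0. The last cluster, from 174328916 to 174328981, was listed on the plus strand alone and ranged from -10.8 to 49.9 over 15 cytosines.

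Among the retrogenes that arose inside host genes, the Mcts2 region had the second highest region mean. Mcts2, which lies within H13 and is related to a translation factor, had 53 listed cytosines in chr2:152685001-152688000, with a mean of 5.26 and 42 of 53 above 0. Differences were small in the upstream part and larger downstream, and the longest stretch of a single sign was 20 cytosines over 123 bp, from 152687027 to 152687149, with a mean of 11.6. The 2 higher calls, 16.4 at 152687134 and 16.6 at 152687137, had q-values of 0.0499 and 0.0455 in the authors' deposited table, close to the threshold. Neither was called under Benjamini-Hochberg adjustment of the deposited p-values. They were 3.77% of the cytosines, below the 4.96% of the rest of the chromosome. This stretch is the downstream part of the promoter printed above, and the hexamer CpG lies upstream of it.

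Zrsr1, a retrogene for a splicing factor within Commd1, had clusters of opposite sign in its region, chr11:22971001-22975000. Its 134 listed cytosines had 4 higher and 2 lower calls (4.48%, against 4.58% of the rest of the chromosome) and a mean of 0.0199. The first cluster, from 22971902 to 22972128, averaged -7.28 with 24 of 28 below 0, and held both lower calls, -15.9 at 22972036 and -21.3 at 22972121 in the authors' deposited table. The cluster from 22973117 to 22973169 averaged 8.23 with 11 of 12 above 0 and held 2 of the higher calls, 14.9 and 13.4 in the authors' deposited table. The remaining higher calls were 16.8 at 22974083, with a q of 2.37e-05, and 16.9 at 22974212 in the authors' deposited table. Both lay in the last cluster, from 22973866 to 22974253, which was mixed, with a mean of 4.55, 13 of 22 above 0 and 9 below. The 60 cytosines from 22972465 to 22972993, between the first cluster and that from 22973117, averaged -0.146 and had no call.

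Nnat, which encodes a small membrane protein and lies within Blcap, had 1 call among 86 listed cytosines in chr2:157559001-157562000. That call was 19.7 at 157561584, with a q of 0.0435 and a difference of -6.55 on the other strand of the same CpG in the authors' deposited table. The region averaged -0.148, and 1.16% of its cytosines were called, against 4.96% of the rest of the chromosome. Nap1l5, a nucleosome assembly protein retrogene within Herc3, had 36 listed cytosines in chr6:58905001-58908000, a mean of -0.871 and no call, on a chromosome where 4.55% of the others were called.

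The Snrpn region, chr7:60002001-60006000, is part of the centre that controls the Prader-Willi cluster. It had 48 listed cytosines with a mean of -3.20, 33 of them below 0. There was 1 call in each direction (4.17%, against 4.60% of the rest of the chromosome). The 22 neighbouring cytosines from 60005092 to 60005229 were all below 0 with a mean of -9.02, and the only call among them was -22.4 at 60005229, with a q of 0.00101 in the authors' deposited table. The higher call, 19.8 at 60004650, had -0.150 on the other strand in the authors' deposited table. The region averaged -0.0361 on the plus strand and -6.64 on the minus strand.

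**Figure D3:**
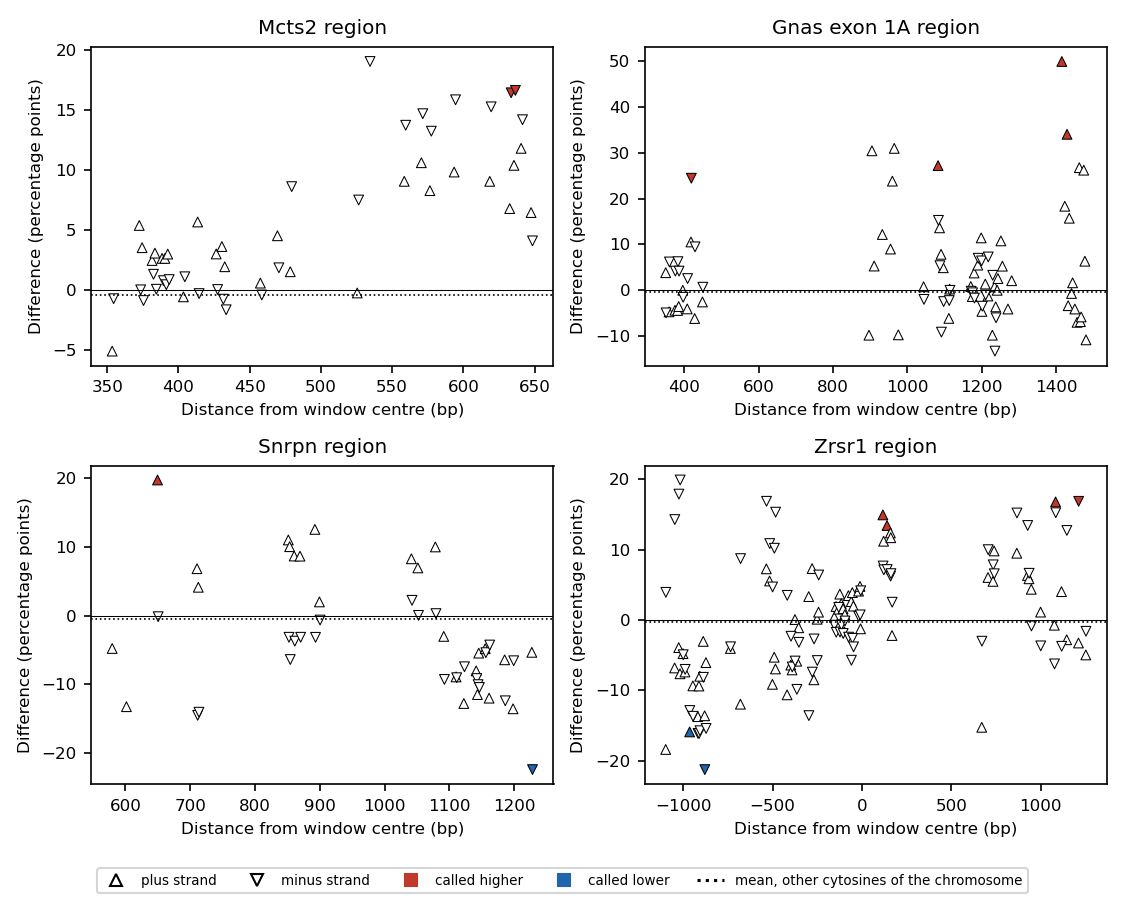
Difference in methylation (y axis, percentage points; scales differ) against distance from the window centre (x axis, bp) in the Mcts2, Gnas exon 1A, Snrpn and Zrsr1 regions, with symbols for strand and call as in the key. Values climb along Mcts2, reach 49.9 at 1 plus strand cytosine of Gnas exon 1A, are below 0 at the promoter end of Snrpn and change sign along Zrsr1.

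Of the other regions at coding genes, Grb10 alone had calls. Grb10 is an adaptor that restrains insulin and growth factor signalling, and its region, chr11:12024001-12028000, had 101 listed cytosines with a mean of 1.22. It had 2 lower calls at 1 CpG outside the RefSeq promoter window, -22.0 at 12026845 and -18.2 at 12026846, and 1 higher call of 20.4 at 12026881 in the authors' deposited table. These calls were 2.97% of its cytosines, below the 4.58% of the rest of the chromosome. The cluster from 12026119 to 12026344 averaged 3.37 over 29 plus strand cytosines with 16 above 0 and 1 below, and none was called.

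Plagl1, a zinc finger regulator of growth, had no call among 80 listed cytosines of chr10:13089001-13093000, where 4.61% of the other cytosines of the chromosome were called. Its mean of 0.714 hid wide values, from -23.0 to 20.5, and a stretch of 20 cytosines from 13090893 to 13090975 was above 0 throughout with a mean of 9.50. Impact, which limits translation control through GCN2, had 54 listed cytosines in chr18:12971001-12976000, 40 of them above 0, with a mean of 0.876 and no call, on a chromosome with 4.7% called. Peg10, derived from a retrotransposon and needed in the placenta, averaged 0.304 over 26 listed cytosines of chr6:4746001-4750000, which ranged from -5.11 to 4.80. Inpp5f, a phosphoinositide phosphatase gene with an imprinted internal transcript, averaged 0.572 over 26 in chr7:128687001-128690000. The region at Mest, which encodes a membrane hydrolase, averaged -0.0307 over 15 in chr6:30735001-30740000, none of them in the RefSeq promoter window. Peg3, a zinc finger gene, had 5 listed cytosines in chr7:6727001-6733000, all on the plus strand, from -9.52 to 12.9 with a mean of 1.81. None of the cytosines of Peg10, Inpp5f, Mest and Peg3 was called, and the few listed at Mest and Peg3 leave most of these windows unseen.

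At the paternally methylated regions 23 cytosines were listed and 1 was called. The H19 region, chr7:142579001-142583000, binds the insulator protein CTCF on the maternal allele and keeps Igf2 silent there. Its 6 listed cytosines differed by -2.04 and 1.56 at 142581187 and 142581188, by 22.8 and 12.6 at 142581230 and 142581231, and by -4.45 and -10.5 at 142581386 and 142581387 in the authors' deposited table. The plus strand value of 22.8 was called, with a q of 7.29e-06, and its minus strand partner had a q of 0.0814 in the authors' deposited table. Within 50 kb of the window 10 of 206 cytosines were called, 9 of them higher, with a mean of 1.41. This share, 4.85%, was close to the 4.60% called among the other cytosines of the chromosome. At Rasgrf1, the gene of a Ras exchange factor, the upstream window chr9:89871001-89881000 had 17 listed cytosines, from -7.92 to 9.56 with a mean of -1.93 and no call, against 4.73% called on the rest of the chromosome.

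The share called in the regions varied with the local density of listed cytosines, counted within 100 bp on either side. Of the 40 calls 32 were in the class of 11 to 20 neighbours, where 6.56% of 488 region cytosines were called, against 5.25% of the other cytosines of that density. These 32 include all 9 calls of Peg13 and all 6 of Airn, so the share of this class rests in large part on 2 regions. In the densest class, 21 or more, 4 of 450 were called (0.889%), all lower, against 3.01% of the others. In the class of 5 to 10 neighbours 3 of 207 were called (1.45%, against 6.14%), and in that of 1 to 4 it was 1 of 43 (2.33%, against 4.69%). When the others were weighted to the chromosomes and density classes of the regions, 4.59% of them were called, 1.90% higher and 2.69% lower.

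**Figure D4:**
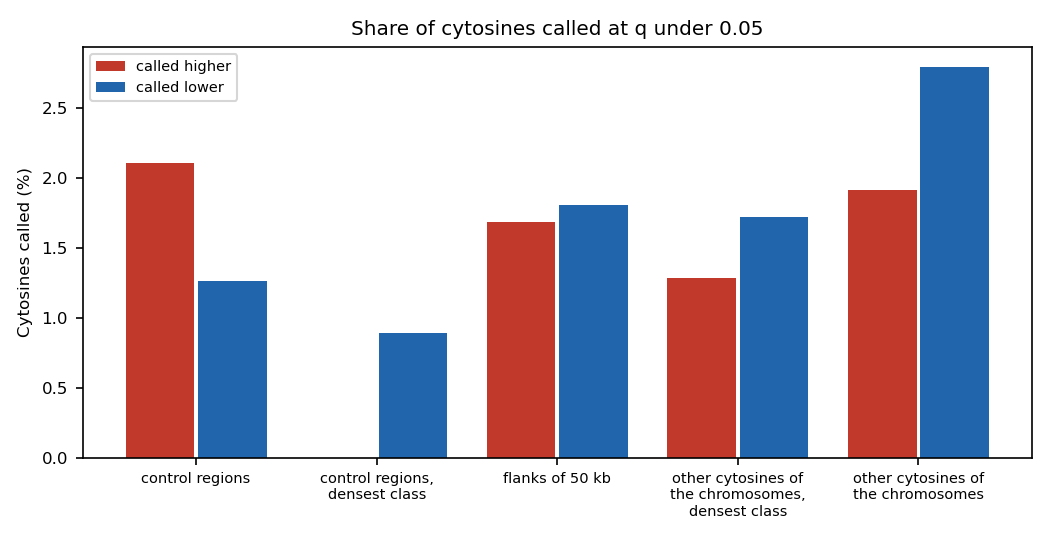
Percent of listed cytosines called higher (red) and lower (blue) at q under 0.05 in 5 sets (x axis): the control regions, their densest class, their flanks, the densest class of the other cytosines, and all other cytosines of the same chromosomes. Higher calls reach 2.10% in the control regions and lower calls 1.26%, against 1.91% and 2.80% in the others.

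Fewer calls did not go with smaller differences. The average absolute difference was 5.58 percentage points in the regions and 4.79 in the others, or 4.48 with the weights above. A difference of 10 points or more was seen at 17.7% of region cytosines and at 14.4% of the others. Of the 20 region cytosines that differed by 25 points or more, 9 were not called, against 7592 of 21223 among the others. Coverage per cytosine, which sets how large a difference can be called, was not analysed here, and its part in these shares was not tested. Within 50 kb of the windows 3.49% of 2438 cytosines were called, 41 higher and 44 lower, with a mean of -0.160.

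The strands of a CpG gave partly different values. Both strands were listed at 526 of the 662 CpGs in the regions, and Pearson's r between them was 0.378, against 0.376 over 537784 CpGs elsewhere on these chromosomes, as a description across neighbouring sites. The 40 calls were 25 of the 658 plus strand cytosines listed in the regions and 15 of the 530 on the minus strand. Elsewhere on these chromosomes 27457 of 584249 and 27648 of 585976 were called. Both strands were called at 6 of the 526 CpGs, against 8817 of the 537784 elsewhere. A total of 7 region cytosines had a p and a difference identical to those of the preceding cytosine on their strand within 100 bp.

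RNA of the genes at the regions did not pass the test in either direction. The list had 54 genes, of which 52 were matched by symbol and 26 had an adjusted p. With the threshold of 0.05 on the authors' adjusted p, 0 of the 26 were called, against 10.9% of the 11482 genes tested, and 2 of the 26 had an unadjusted p under 0.05. The median log2 fold change of the 26 was 0.02, against -0.0027 over all tested genes, with 14 above 0 and 12 below. A total of 16 genes had a mean normalized count above 0 and no adjusted p, and 10 were listed at 0: Sgce, Peg10, Mest, Nap1l5, Snrpn, Snurf, Ins2, Slc22a2, Slc22a3 and Hrh4. Whether a 0 stands for no RNA or for reads set aside in counting was not tested.

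At the Peg13 and Airn regions, where calls of a single sign reached 10% with at least 3 calls, no gene passed the RNA test. In the authors' deposited table Peg13 had a log2 fold change of 0.09 (SE 0.40, adjusted p 0.928) at a mean normalized count of 71.2. Trappc9, the host gene, had -0.09 (SE 0.19, adjusted p 0.825) in the authors' deposited table. Ago2, a neighbour that encodes the slicer of RNA interference, had -0.42 (SE 0.19, adjusted p 0.158) in the authors' deposited table. Airn had 0.46 (SE 0.30, adjusted p 0.360) and Igf2r 0.21 (SE 0.25, adjusted p 0.671) in the authors' deposited table. Airn and Igf2r overlap on opposite strands, as do Kcnq1ot1 and Kcnq1 or Nespas and Gnas, and Peg13 and Trappc9, Mcts2 and H13, Zrsr1 and Commd1, and Nnat and Blcap overlap too. The kit was directional per the labels, but no source used here gives the strand setting of the counting, so values of these pairs are uncertain.

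The largest fold change of the list was that of Peg3, 0.83 (SE 0.31, adjusted p 0.0668) in the authors' deposited table. Igf2, the growth factor governed by the H19 region, had 0.53 (SE 0.30, adjusted p 0.275), and H19 itself had no adjusted p at a mean normalized count of 3.42 in the authors' deposited table. Ndn, a gene of the Snrpn cluster, had 0.50 (SE 0.31, adjusted p 0.334) in the authors' deposited table. Zrsr1 had 0.44 (SE 0.27, adjusted p 0.317), and Mcts2 had -0.41 (SE 0.29, adjusted p 0.411), in the authors' deposited table. Plagl1 had the lowest value, -0.51 (SE 0.34, adjusted p 0.378), in the authors' deposited table. Gnas, Grb10 and Impact, all at mean normalized counts of 4705 or more, had -0.05, 0.06 and 0.02 in the authors' deposited table.

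**Figure D5:**
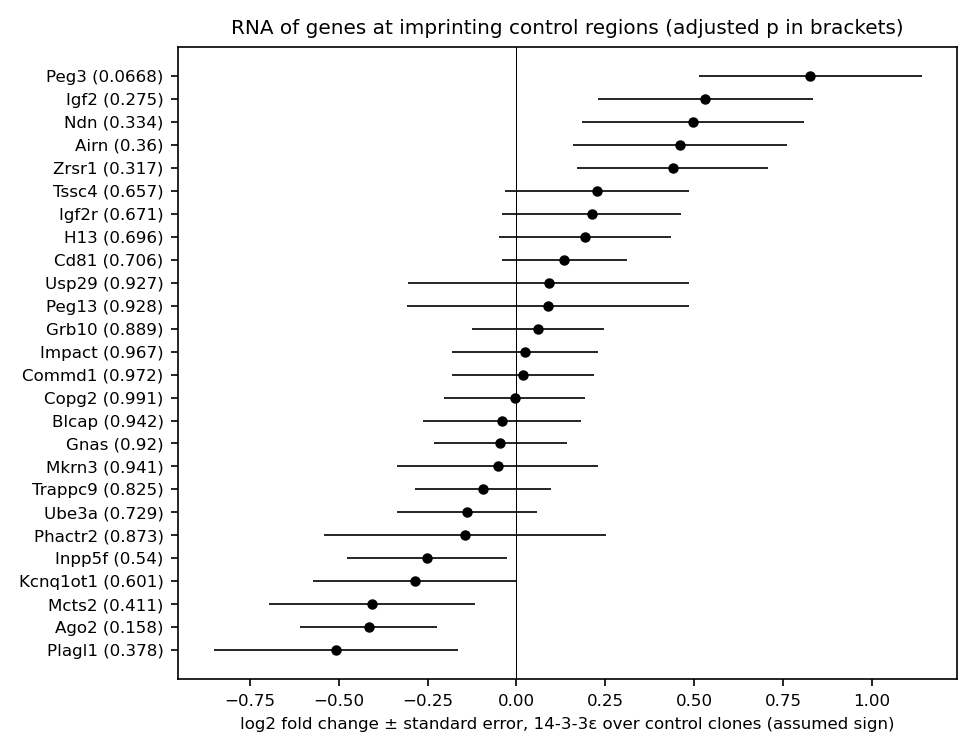
Log2 fold change of RNA with its standard error (x axis) for the 26 genes at control regions that have an adjusted p (y axis, adjusted p in brackets). The values run from -0.51 at Plagl1 to 0.83 at Peg3, and none has an adjusted p under 0.05.

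Among 33 genes that set or keep imprints, 28 had an adjusted p, of which 1 rose and 2 fell. That is 10.7% called in either direction, near the 10.9% of all tested genes, of which 6.15% were higher and 4.74% lower. The median log2 fold change was -0.16, with 20 of 28 below 0. Pcna, the replication clamp that guides maintenance methylation, fell by 0.84 on the log2 scale (SE 0.22, adjusted p 0.0038), and the remodeller Hells fell by 1.09 (SE 0.20), in the authors' deposited table. Tet1, which oxidises methylcytosine, rose by 0.74 (SE 0.23, adjusted p 0.0200) in the authors' deposited table.

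The factors that bind the methylated control regions were detected and did not pass the test. Zfp57 had a mean normalized count of 3823 and a log2 fold change of -0.22 (SE 0.26, adjusted p 0.667) in the authors' deposited table. Zfp445 had -0.22 (SE 0.19, adjusted p 0.521) and their partner Trim28 had -0.20 (SE 0.17, adjusted p 0.519) in the authors' deposited table. Uhrf1, which recognises hemimethylated DNA after replication, had -0.67 (SE 0.33, adjusted p 0.194), and Dnmt1, which then copies the mark, had -0.45 (SE 0.27, adjusted p 0.309), in the authors' deposited table. Smchd1, a chromatin protein needed at some imprinted clusters, had -0.48 (SE 0.21, adjusted p 0.133) in the authors' deposited table. Kdm1b, the histone demethylase needed for maternal imprints in the egg, had 0.58 (SE 0.24, adjusted p 0.111), and Ctcf had 0.02 (SE 0.20, adjusted p 0.970), in the authors' deposited table.

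The RNA profile was that of fibroblasts: all 10 fibroblast markers were tested, at mean normalized counts from 4843 to 424650, while markers of epithelium, blood, endothelium and germ or pluripotent cells reached at most 51.1, 110, 8.17 and 10.3. Of the 10 fibroblast markers 7 rose and none fell, against 6.15% of all tested genes higher and 4.74% lower. The part of these markers in the values of imprinted genes was not tested. Kdr, an endothelial receptor, and Sox2, a pluripotency factor, were listed at 0.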

How the data were processed

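DNA methylation and RNA of 4 NIH3T3 clones were read from 1 deposited table per assay, with no value per clone. Reads were processed with Trim Galore, Bismark, Bowtie2, methylKit, TopHat2, HTSeq and DESeq2 on mm10, per the submitters' processing notes. Versions, settings, coverage per cytosine, depth per sample and how both clones of a group entered the test were not given in the sources used here, so no counting interval is printed. If reads were pooled, q-values measure read sampling and not the spread between clones. The RRBS table holds p-values and q-values and the change of percent methylation as the authors deposited them. The RNA table holds the mean normalized count, a signal over all libraries under a header that DESeq2 uses, log2 fold changes with standard errors, and a test score, as deposited by the authors. An adjusted p was deposited by the authors down to a mean normalized count of 33.1.

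From 2361933 lines 253 exact duplicates were removed. Cytosines were assigned to windows by position, and differences were averaged without weights. A region counted as moved with at least 5 listed and 3 called cytosines, 10% or more called and 75% of calls of a single sign. Clusters are runs of listed cytosines with gaps of at most 100 bp. All 19 windows and all genes of 2 lists were described, with values for the called cytosines and for genes at the regions or of imprint upkeep. The members and lists were chosen with earlier results of these data known. Because only the authors' comparison was deposited, their own tests were used and no model was fitted. RefSeq promoter bases fitted the strand at 277267 of 277267 listed positions, and 361 of 276308 were not at a CpG of the build. Counting was tested on simulated data. Python 3.11.15, pandas 2.3.3 and numpy 2.4.6 were used. Alternatives changed the threshold, windows, density, weighting and adjustment.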

Additional observations from a re-analysis of the deposited data

How the results depend on the processing

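No paired analysis was possible because the deposited values compare the groups and are not split by clone, and for the same reason no clone could be left out and no coverage minimum tried. The share of region cytosines called, 3.37% as reported, was 1.85% at q under 0.01 (others of the same chromosomes 2.46%), 0.926% with a difference of at least 25 points (others 1.16%) and 5.14% with both strands of a CpG counted once (others 7.32%). Of the 1188 region cytosines 12 were called higher and 10 lower at q under 0.01, against 0.981% and 1.47% of the others. With a difference of at least 25 points 10 were called higher and 1 lower, against 0.452% and 0.713% of the others. Without the Peg13 and Airn windows, an alternative chosen after seeing the data, 2.28% were called, 16 higher and 9 lower. Under a difference of at least 10 points, Benjamini-Hochberg adjustment of the deposited p, narrower windows, no window over 9 kb or at least 11 listed cytosines within 100 bp, the share ran from 3.03% to 3.92%. It was below that of the others under each of these settings, but at 11 or more listed cytosines the shares were nearly level, 3.84% against 3.95%. The mean difference was above 0 under every alternative run for it. With each window left out in turn it ran from 0.268 without Peg13 to 1.08 without Gnas-Nespas, with 0.401 without Gnas exon 1A and 1.14 without the windows over 9 kb, each over 1.5 times from 0.658. With at least 11 listed cytosines within 100 bp the mean of Gnas-Nespas was 0.0924 in place of -0.559 and that of Zrsr1 -1.29 in place of 0.0199, the only region means to change sign, and the cause was not tested. Peg13 met the rule for a region under every alternative run for it, and Airn under all but the setting where 2.5% of cytosines were called with a difference of at least 25 points. Of the 26 tested genes at the regions 1, Peg3, was called at an adjusted p under 0.1 (15.1% of all tested genes). At an unadjusted p under 0.05, a setting added after seeing the data, 3 of 42 genes at the regions and 7 of 29 genes of imprint upkeep passed (16.2% of all genes with a p). The depth behind the methylation values is unknown and limits each of them.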

Other observations

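Around the control regions, some windows of 1 kb within 50 kb held several calls, which are counted above only in the totals of the flanks. The flanks as a whole had 3.49% called, and the windows below were taken from those with at least 3 calls. Windows near Nnat, Mest, Kcnq1ot1, Plagl1 and Grb10 also had that many and are not described. Among those left out, only the window near Grb10 had calls of a single sign, which were higher. At Sgce, the neighbour of Peg10, the window chr6:4733001-4734000 had 4 of 12 listed cytosines called, all lower, with a mean difference of -10.5 percentage points. Inside H13, which hosts Mcts2, the window chr2:152671001-152672000 had 3 of 11 called, all lower, with a mean of -9.46, while Mcts2 itself averaged 5.26. At Zim1, a zinc finger gene in the Peg3 cluster, the window chr7:6678001-6679000 had 4 of 12 called, all higher, with a mean of 8.46. Near Fam161a, beyond Zrsr1, the window chr11:23008001-23009000 had 7 of 26 called, 4 higher and 3 lower, with a mean of -0.285. These windows were singled out after their values were seen, and no test was made of them.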
